A study of Mus musculus with 37 samples.

Results

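The genes described here are 56 non-Hox homeobox and paired-box (Pax) transcription factor genes, chosen by name from the 48795 genes counted by RNA-seq in the hippocampus of adult mice. Of these 56 genes, 22 had enough reads to pass the filter on low counts of the main test, among 16799 genes that did.

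The study deleted the histone H3K4 demethylase gene Kdm1a in forebrain excitatory neurons of adult male mice (Kdm1a-ifKO). Kdm1a-ifKO mice carried Kdm1a f/f alleles and Camk2a-creERT2, a tamoxifen-inducible Cre recombinase driven by the Camk2a promoter, and received tamoxifen as young adults. Controls were littermates without Camk2a-creERT2, labelled WT, that received tamoxifen as well. Carrying Cre and the deletion thus go together in this design. The age at tissue collection for RNA is not given in the sources used here. RNA came from 3 control and 3 Kdm1a-ifKO mice, 1 library a mouse, with 18985542 to 19469947 counted reads a library. The tissue was whole hippocampus, so the RNA also came from interneurons, glia and vessels, which the Camk2a promoter does not target. The CTCF ChIA-PET library, which maps pairs of DNA sites held together with the architectural protein CTCF, came from sorted Camk2a+ nuclei of wild-type mice treated with tamoxifen, as 1 library without a replicate. For the sorting, these mice carried Camk2a-creERT2 and the fluorescent nuclear reporter CAG-Sun1/sfGFP.

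Homeobox genes encode proteins that bind DNA through a homeodomain, and Pax proteins bind it through a paired domain that some of them combine with a homeodomain. During development these factors divide the embryo into regions and then fix the type of neuron, muscle or gland that each region makes. A few stay active for life in the adult hippocampus, such as Prox1 in dentate granule cells and the Dlx genes in interneurons, whereas most are off in adult forebrain.

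Kdm1a, the deleted gene, was measured first as a check of the labels. Its raw counts were 1521, 1545 and 1481 in the controls and 764, 726 and 748 in the Kdm1a-ifKOs. The groups did not overlap, and the normalised count fell by 1.07 on the log2 scale (SE 0.0559, edgeR adjusted p = 6.24e-08). The exact 2-sided permutation test over the 6 libraries gave p = 0.1, the smallest it can give with 3 against 3. The tissue includes cells without the deletion, and counts over the whole gene also include any RNA of deleted alleles outside the floxed exons, so the remaining level does not measure the share of cells with the deletion. The markers of hippocampal excitatory neurons were abundant in every library, with a summed level of 7848 to 8314 CPM (counts scaled to library size) in controls and 7573 to 8553 CPM in Kdm1a-ifKOs, Camk2a being the most abundant per length.

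Of the 56 genes, Mixl1 rose and Meis2 fell in the Kdm1a-ifKO hippocampus. With edgeR's quasi-likelihood test and adjustment over all tested genes, 1 listed gene was called higher, where 6.04% of all tested genes were (1014 of 16799). In the other direction, 1 listed gene was called lower, where 2.82% of all tested genes were. At a change of more than 1 log2 unit, 1 listed gene was called higher, against 1.36% of all tested genes. The remaining 34 genes of the 56 had too few reads for this test. Counts of 1 among 22 tested genes are close to these background shares. At an unadjusted p under 0.05 there were 5 listed genes, Mixl1, Meis2, Lhx2, Six4 and Six5, where 24.5% of all tested genes had such a p.

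**Figure D1:**
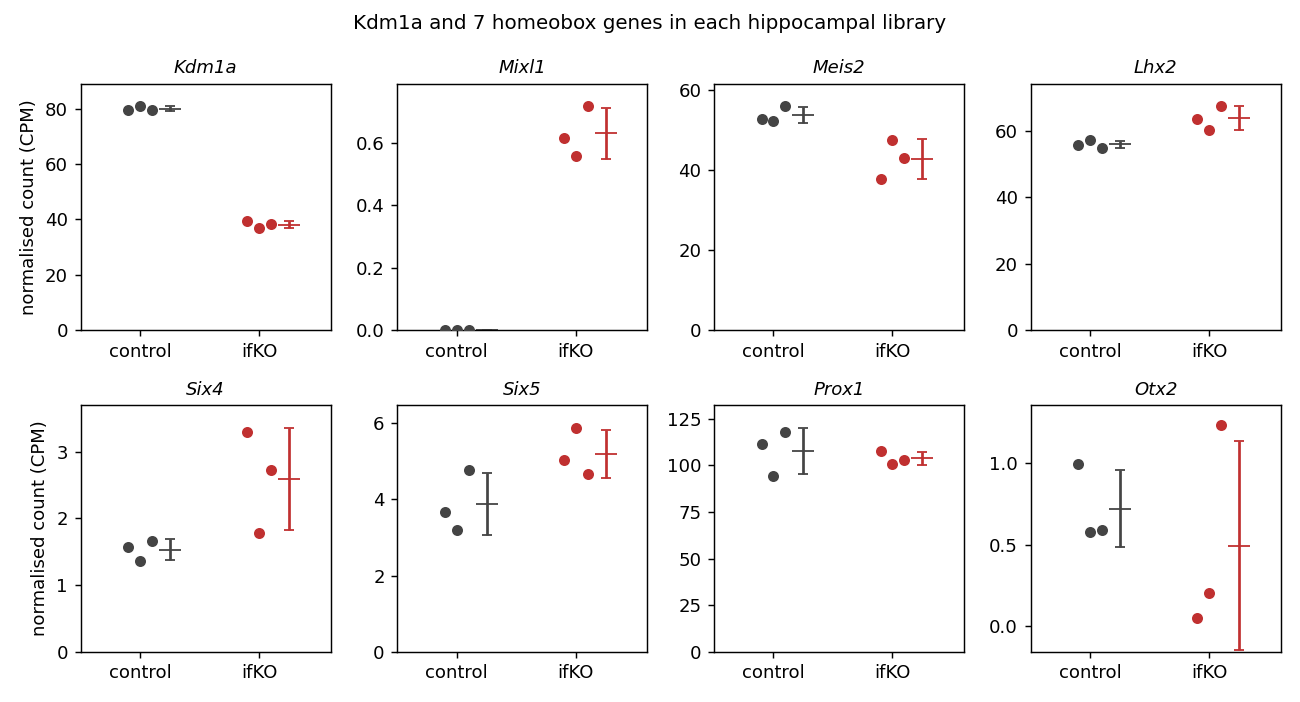
Normalised count (CPM, vertical axes from 0 or just under it) of Kdm1a and 7 listed genes in each control (grey) and Kdm1a-ifKO (red) library; points are libraries, and the bar and whiskers beside them are the mean and SD of 3. Mixl1 had 0 reads in the 3 controls and 11 to 14 in each Kdm1a-ifKO, and the Meis2 points of the Kdm1a-ifKOs lie below those of the controls.

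The level of each gene was compared per length, as TPM (counts divided by exon length and scaled to the same total in each library), with control libraries alone used to set the classes. In controls, 16 genes reached 1 TPM and are called expressed, 23 lay between 0.1 and 1 TPM and are called low, and 17 lay under 0.1 TPM and are called silent. Among all protein-coding genes counted, 64.1% were expressed, 10.5% low and 25.4% silent, against 28.6%, 41.1% and 30.4% of the listed genes. All 16 expressed genes were tested. Of the 23 low genes 5 were tested, and of the 17 silent genes only Mixl1 was. A gene that is silent in controls can pass the filter only through the Kdm1a-ifKO libraries, so a count of changed genes among those tested says little about the silent class.

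**Figure D2:**
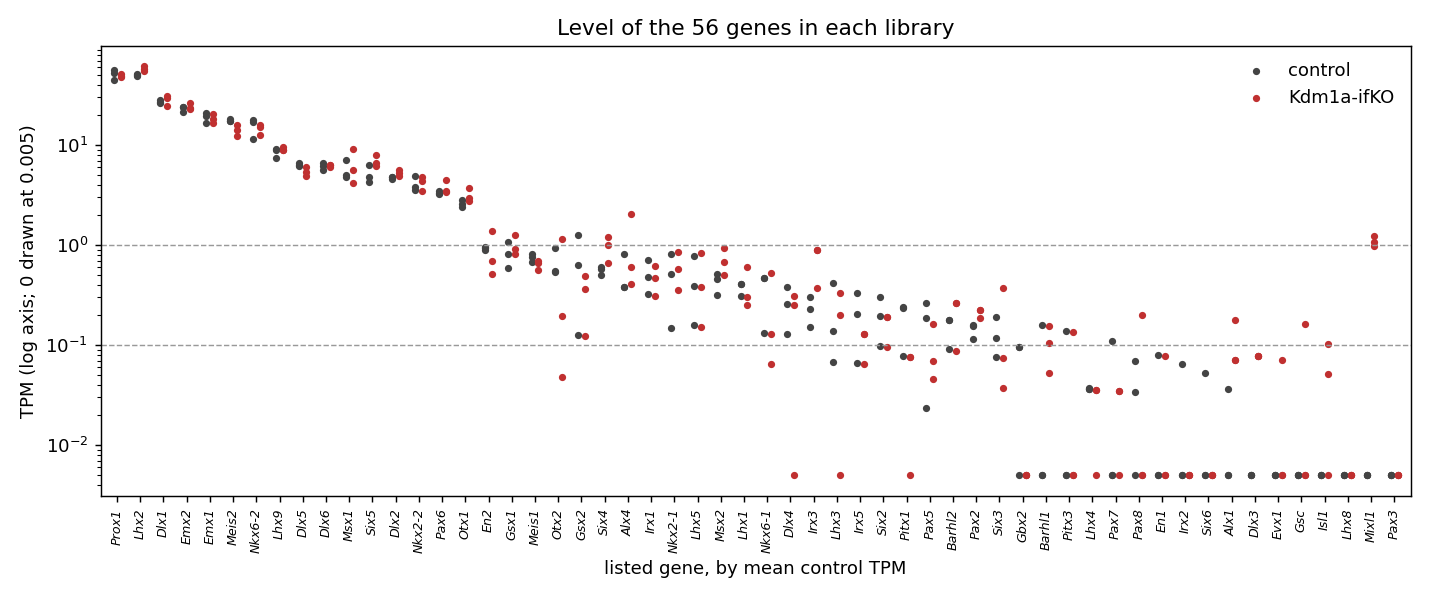
Level in TPM (log axis, 0 drawn at 0.005) of the 56 genes in each of the 3 control (grey) and 3 Kdm1a-ifKO (red) libraries, ordered by mean control level, with dashed lines at 1 and 0.1 TPM. Mixl1, near the right end, is at 0 in the controls and between 0.98 and 1.25 TPM in the Kdm1a-ifKOs.

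Among the genes of hippocampal and cortical patterning, Prox1 was the most abundant of the 56. It specifies dentate granule cells, and its level was 53.0, 44.7 and 55.8 TPM in the controls and 51.2, 48.5 and 48.9 TPM in the Kdm1a-ifKOs. The groups overlapped, with a log2 change of -0.05 (SE 0.0748, edgeR adjusted p = 0.707). Lhx2, a LIM-homeodomain factor that gives dorsal forebrain its identity, came next at 50.7, 51.9 and 49.6 TPM in the controls and 57.8, 55.4 and 61.3 TPM in the Kdm1a-ifKOs. All 3 Kdm1a-ifKO libraries lay above the controls, but the log2 difference of 0.19 (SE 0.0596) missed the threshold (edgeR adjusted p = 0.0646). Under upper-quartile normalization, with no filter on low counts, and without Kdm1a-ifKO replicate 2, its adjusted p was 0.0377, 0.0359 and 0.0498, in a range of 0.0325 to 0.268 over all alternatives. The control levels of Prox1 and Lhx2 overlap, so their order is not resolved.

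The Emx genes, which pattern the medial and dorsal cortex, were at lower levels. Emx2 was at 24.2, 21.7 and 24.0 TPM in the controls and 23.4, 23.0 and 26.7 TPM in the Kdm1a-ifKOs. Emx1 was at 20.9, 16.5 and 19.6 TPM in the controls and 18.1, 20.7 and 16.8 TPM in the Kdm1a-ifKOs. For both genes the groups overlapped, with edgeR adjusted p = 0.739 and 0.863. Lhx9, Pax6, Otx1 and Meis1 overlapped between the groups as well, at control means of 8.52, 3.35, 2.61 and 0.751 TPM.

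Meis2 was the listed gene that fell. It encodes a TALE-class homeodomain partner of Hox, Pax and Pbx proteins and lies on chr2:115863064-116065839 (GRCm38, minus strand). Its counts were 1013, 999 and 1045 in the controls and 734, 939 and 840 in the Kdm1a-ifKOs. Every Kdm1a-ifKO library was below every control, with replicate 2 the highest of the 3. The control mean was 53.8 ± 2.0 CPM (SD, n = 3). The Kdm1a-ifKO mean was 42.8 ± 4.96 CPM (SD, n = 3), and the normalised count fell by 0.33 on the log2 scale (SE 0.0786, edgeR adjusted p = 0.0205). The call was lost without control replicate 3 (log2 change -0.30, adjusted p = 0.0515), without Kdm1a-ifKO replicate 1 (-0.25, 0.0834) and without Kdm1a-ifKO replicate 3 (-0.34, 0.0584). The smallest adjusted p over the alternatives was 8.98e-05, with no filter on low counts. That setting also called more genes lower over all tested genes, 1090 against 473 in the main test. Its nearest protein-coding neighbours, BC052040 on one side and Tmco5 on the other, had log2 changes of -0.05 (edgeR adjusted p = 0.868) and 0.31 (0.502).

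Markers of neighbouring cortex were examined beside Meis2 with a list chosen after values of these data were seen, so the list is a description. Of its 16 genes 15 were counted and 14 tested, of which 2 were called lower and 2 higher by edgeR, and 3 and 2 by DESeq2, which added Tbr1. Of all tested genes, edgeR called 2.82% lower and 6.04% higher. Slc17a6, a vesicular glutamate transporter of subiculum, retrosplenial cortex and thalamus, had 332, 422 and 356 counts in controls and 131, 245 and 164 in Kdm1a-ifKOs and fell by 1.09 on the log2 scale (edgeR adjusted p = 0.0215). As for Meis2, replicate 2 was the highest of the Kdm1a-ifKO libraries, a rank among 3 libraries that was not tested. Nts, which encodes neurotensin, fell by 0.83 (edgeR adjusted p = 0.0410). The largest change of the list was that of Rspo1, an activator of Wnt signalling, which had 13, 19 and 13 counts in controls and 246, 201 and 270 in Kdm1a-ifKOs and rose by 3.94 (edgeR adjusted p = 3.77e-08). Rasgrf2 rose by 0.22 (edgeR adjusted p = 0.0337). The summed level of the list was 569.8, 591 and 588 CPM in the controls and 574, 625 and 557 CPM in the Kdm1a-ifKOs, and its most abundant gene per length was Bcl11b, which hippocampal neurons express too. The part of dissection in the Meis2 result was not tested, and in bulk tissue fewer cells of a type and less RNA per cell cannot be told apart.

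Of the genes of ventral forebrain and interneurons, 4 were tested and 0 were called by edgeR or DESeq2, with 0 at an unadjusted p under 0.05. Dlx1, needed for interneuron survival, was at 28.3, 26.5 and 27.0 TPM in the controls and 24.6, 29.7 and 31.0 TPM in the Kdm1a-ifKOs (edgeR adjusted p = 0.735). Dlx2, Dlx5 and Dlx6 were at control means of 4.73, 6.37 and 6.16 TPM and had adjusted p from the same test of 0.606, 0.404 and 0.998. The libraries of the 2 groups did not overlap for Dlx2, with Kdm1a-ifKOs higher, and for Dlx5, with Kdm1a-ifKOs lower, and neither was called. Interneuron markers outside the list were tested for 9 of 9 genes, with Vip and Npy called lower (fell by 0.46 and 0.31 on the log2 scale, edgeR adjusted p = 0.0122 and 0.0106) and 0 called higher. The shares called over all tested genes were 2.82% lower and 6.04% higher. At an unadjusted p under 0.05 there were 6 of the 9, where 24.5% of all tested genes were. For 5 of the 9 every Kdm1a-ifKO library lay below every control, as for 14.9% of tested genes of at least 1 TPM, among them Gad2 and Pvalb (log2 differences of -0.16 and -0.23, edgeR adjusted p = 0.0599 and 0.0529). For 2 of the 9, Lhx6 and Sst, every Kdm1a-ifKO library lay above every control, as for 15.4% of such genes. Lhx6, a LIM-homeobox gene of interneurons, had 363, 385 and 356 counts in the controls and 470, 447 and 417 in the Kdm1a-ifKOs (log2 difference 0.23, edgeR adjusted p = 0.0866). The log2 difference was positive for these 2 and negative for the others, with a median of -0.16. The summed level of these markers was 913, 964 and 895 CPM in the controls and 897, 860 and 861 CPM in the Kdm1a-ifKOs, which overlap. With 1 marker left out at a time, a reading added after these values were seen, every Kdm1a-ifKO sum lay below every control without Lhx6, Sst, Gad1 or Slc32a1, and the sums overlapped without any of the others. The part of these markers in the Dlx values was not tested. Of the remaining ventral genes, Gsx1, Gsx2, Nkx2-1 and Dlx4 were low, Dlx3 had 0 reads in controls and 1 in each Kdm1a-ifKO, Isl1 had 3 reads in all, and Lhx8 had 0 reads in the 6 libraries.

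The oligodendrocyte factors Nkx6-2 and Nkx2-2 were at control means of 15.4 and 4.06 TPM and overlapped between the groups (edgeR adjusted p = 0.768 and 0.917). Their relative Nkx6-1 was low. Oligodendrocyte markers were called in 0 of 6 genes by edgeR and by DESeq2, with 1 at an unadjusted p under 0.05.

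Over the 16 expressed genes the median log2 change was 0.06, where it was -0.0040 over all tested protein-coding genes of this class. Among the 16, 0 were called higher and 1 lower by edgeR, against 5.71% and 2.96% of all tested genes of at least 1 TPM, and 3 had an unadjusted p under 0.05. The Kdm1a-ifKO libraries were all above the controls for 2 of the 16 and all below for 2, where this held for 15.4% and 14.9% of tested genes of that class.

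**Figure D3:**
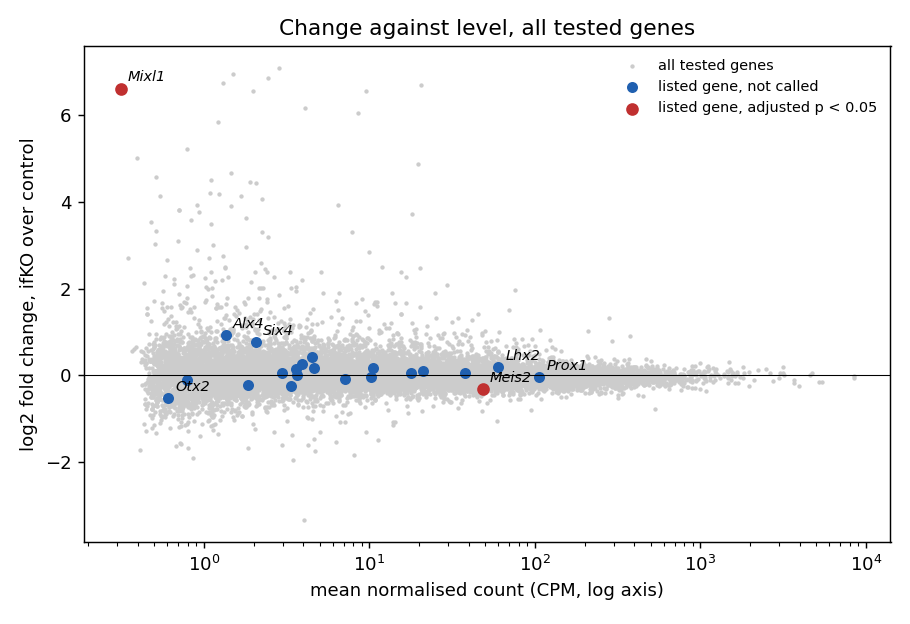
Log2 change of Kdm1a-ifKO over control against the mean normalised count (CPM, log axis) for all tested genes (grey), with the 22 tested listed genes in blue, or in red where the edgeR adjusted p was under 0.05. Mixl1 lies at the upper left at 6.62, a fitted value that depends on the prior count, and Meis2 lies just under 0.

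Among the sine oculis-related and Iroquois genes (such as Six4, Six5 and Irx3), which act in eye, muscle, kidney and neural patterning, both Six4 and Six5 were higher on average in Kdm1a-ifKOs without passing the test. Six4 had 30, 26 and 31 counts in the controls and 64, 35 and 53 in the Kdm1a-ifKOs, which did not overlap. Its log2 difference was 0.76 (SE 0.248, edgeR adjusted p = 0.0777). With no filter on low counts its adjusted p was 0.0253, and without Kdm1a-ifKO replicate 2, the lowest of its group, it was 0.0199, in a range of 0.0163 to 0.263 over all alternatives. Six5, next to the myotonic dystrophy kinase gene, had 70, 61 and 89 counts in the controls and 98, 116 and 91 in the Kdm1a-ifKOs. After normalisation these overlapped (log2 difference 0.42, SE 0.177, edgeR adjusted p = 0.161). Irx3 was too low for the main test, with 4, 2 and 3 counts in the controls and 5, 12 and 12 in the Kdm1a-ifKOs. With every gene of at least 10 counts over the 6 libraries tested, its edgeR adjusted p was 0.0952. The other members of the group were too low for the main test as well and did not share a direction. Over the 3 controls and the 3 Kdm1a-ifKOs, Irx1 had 19 and 18 counts, Irx5 had 9 and 5, Six2 had 6 and 5, and Six3 had 10 and 13, while Irx2 and Six6 had 1 and 0 each.

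Mixl1 was the listed gene that rose, and the study already showed it as an example of an upregulated gene in its RNA-seq. It encodes a paired-type homeodomain protein of the primitive streak that guides mesoderm and endoderm formation, and lies on chr1:180693043-180697034 (GRCm38, minus strand). It had 0, 0 and 0 counts in the controls and 12, 11 and 14 in the Kdm1a-ifKOs, so the groups were fully apart. Its level in the Kdm1a-ifKOs was 1.07, 0.98 and 1.25 TPM. Against a floor of 3 counts over the control group, Mixl1 was at least 11.9-fold higher (edgeR adjusted p = 0.00137), and it was called with each single library left out, at adjusted p from 0.00256 to 0.00801. It is thus a small number of reads in each of 3 libraries, at a level below that of each of the 16 expressed genes.

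Gsc, a goosecoid homeobox gene of the same embryonic stage, had 0 reads in the controls and 1 in 1 Kdm1a-ifKO library. Alx1 had 1, 0 and 0 counts in the controls and 2, 5 and 2 in the Kdm1a-ifKOs, a ratio of 8.72 with an exact interval of 1.21 to 382 that covers counting error only, and its edgeR adjusted p among genes of at least 10 counts was 0.171. Alx4 and Msx1 each had 1 high library, Kdm1a-ifKO replicate 2, at 70 and 139 counts, where the other Kdm1a-ifKO libraries had 21 and 14 for Alx4 and 64 and 86 for Msx1. In the controls Alx4 had 13, 13 and 27 counts and Msx1 had 105, 71 and 74. Msx2 and Pitx1 were low. The markers of meninges and fibroblasts had the same high library, with a summed level of 109, 109 and 122 CPM in the controls and 101, 218 and 71.2 CPM in the Kdm1a-ifKOs. Their part in the Alx4 and Msx1 values was not tested.

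The factors of midbrain and hindbrain, such as En1, En2, Gbx2, Pax2, Pax5 and Pax8, and of motor neurons and dorsal neural tube, such as Lhx3, Lhx4, Pax3, Pax7 and Evx1, were low or silent in both groups. The most abundant was En2, at a control mean of 0.930 TPM. Otx2, which marks choroid plexus and midbrain, had 19, 11 and 11 counts in the controls and 1, 4 and 24 in the Kdm1a-ifKOs. The groups overlapped through Kdm1a-ifKO replicate 3 (edgeR adjusted p = 0.743), and without that library Otx2 fell by 2.44 on the log2 scale (adjusted p = 0.0444, where the other alternatives gave up to 0.994). Of the choroid plexus markers, Ttr had the highest level per length in controls (a mean of 55.6 TPM), with 611, 204 and 131 counts in the controls and 64, 123 and 159 in the Kdm1a-ifKOs. Of the 6 tested 1 was called, Kl, where 6.04% of all tested genes were called higher. Kl, which neurons express too, was higher, at 455, 428 and 500 counts in the controls and 1178, 1111 and 1169 in the Kdm1a-ifKOs (edgeR adjusted p = 1.32e-07). The summed level of the list was 64.7, 38.9 and 42.0 CPM in the controls and 69.9, 68.8 and 76.0 CPM in the Kdm1a-ifKOs. That difference rested on Kl. Left out in the same way, the sum without Kl was 40.9, 16.4 and 15.2 CPM in the controls and 9.40, 12.4 and 16.0 CPM in the Kdm1a-ifKOs, which overlap. The log2 difference was positive for 3 of the 6 tested markers, with a median of 0.04. Beside Kl, these were Folr1 and Aqp1 at 0.12 and 0.21, while Ttr, Clic6 and Prlr were at -1.49, -0.85 and -0.03, with edgeR adjusted p from 0.202 to 0.955 over these 5. How far choroid plexus in the dissection sets the Otx2 counts was not tested.

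The 17 silent genes had 6, 4 and 9 reads in total in the controls and 20, 22 and 30 in the Kdm1a-ifKOs. With Mixl1 included, this was a ratio of 3.67 with an exact interval of 2.19 to 6.45 for counting error. Without Mixl1 the totals were 19 reads in the controls and 35 in the Kdm1a-ifKOs, a ratio of 1.78 with an exact interval of 0.993 to 3.30 for counting error. The class was set by low values in controls, which favours higher totals in the Kdm1a-ifKOs. All silent protein-coding genes, those that rose included, had a ratio of 2.74 with this definition, where the 17 listed genes had 3.67. For protein-coding genes it was 0.993 when silence was set by the mean of all 6 libraries. This mean leaves out genes with high Kdm1a-ifKO values, Mixl1 among them, and so lowers the ratio through the change itself. The value of 0.993 therefore does not show how much of 2.74 came from the choice of class. With that second definition 16 listed genes were silent, with the same 19 and 35 reads and the same ratio of 1.78, whose interval includes 1. With every gene of at least 10 counts over the 6 libraries tested, a filter that does not use the group labels, 40 of the 56 genes could be tested. Their median log2 change was 0.05, where it was 0.0024 over all such protein-coding genes. Mixl1 and Meis2 were again the listed genes called, 1 higher and 1 lower, against 4.93% and 2.3% of the 20934 genes tested. Mixl1, without a read in controls, passed this filter too only through the Kdm1a-ifKO libraries, so its call here is no separate evidence. Among genes under 1 TPM in controls, 24 listed genes were tested this way, with 1 called higher and 0 lower by edgeR, against 3.38% and 0.0524% of 3815 genes.

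Outside the 56 genes, a list of 121 other homeobox and paired genes gave 120 that were counted and 50 that were tested. Of these, 3 were called higher and 1 lower, close to the 6.04% and 2.82% of all tested genes, with a median log2 change of 0.03 where all tested genes had -0.0034. Among the called genes the largest change was that of Hhex, a homeobox gene of liver, endothelium and blood, which had 33, 26 and 35 counts in the controls and 45, 77 and 76 in the Kdm1a-ifKOs and rose by 1.02 (SE 0.241, edgeR adjusted p = 0.0186).

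Below the filter of the main test, the listed genes Alx1 and Dlx3 had 9 and 3 reads over the Kdm1a-ifKOs and almost none in controls. Outside the list, Msx3 and Phox2a resembled Mixl1 in having reads in each Kdm1a-ifKO library and almost none in controls. They were chosen after their values were seen. Msx3, a gene of the dorsal neural tube, had 0, 1 and 0 counts in the controls and 14, 11 and 7 in the Kdm1a-ifKOs, a ratio of 31.0. Its exact interval of 5.18 to 1262 covers counting error only and not the choice of the gene, so it is no test. Phox2a, which specifies noradrenergic and cranial motor neurons, had 0, 0 and 0 counts in the controls and 9, 5 and 6 in the Kdm1a-ifKOs, at least 6.46-fold higher against a floor of 3 counts over the group. Since they were chosen for this difference, no test is given for them.

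The sequences before the starts of both genes are shown because they gained reads together, beside that of Lhx2, an expressed listed gene. They come from the RefSeq promoter table (GRCm38.p6), which held 42 of the 56 genes and no entry for Mixl1, and are written 5′ to 3′ with CpG dinucleotides in capitals, less any base that an annotated exon covers. Msx3 is chr7:140049090-140049338 on the minus strand, Phox2a is chr7:101818063-101818312 on the plus strand and Lhx2 is chr2:38339031-38339280 on the plus strand.
Msx3: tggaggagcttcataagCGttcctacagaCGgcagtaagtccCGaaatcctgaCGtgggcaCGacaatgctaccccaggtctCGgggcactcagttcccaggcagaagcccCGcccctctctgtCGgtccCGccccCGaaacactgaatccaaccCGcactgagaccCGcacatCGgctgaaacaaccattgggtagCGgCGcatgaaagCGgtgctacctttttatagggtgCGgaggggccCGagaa
Phox2a: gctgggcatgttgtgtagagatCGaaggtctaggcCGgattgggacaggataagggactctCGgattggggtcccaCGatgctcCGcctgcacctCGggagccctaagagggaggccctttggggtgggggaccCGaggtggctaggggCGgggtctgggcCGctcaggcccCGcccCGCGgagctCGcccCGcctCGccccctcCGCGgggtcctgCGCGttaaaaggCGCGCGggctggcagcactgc
Lhx2: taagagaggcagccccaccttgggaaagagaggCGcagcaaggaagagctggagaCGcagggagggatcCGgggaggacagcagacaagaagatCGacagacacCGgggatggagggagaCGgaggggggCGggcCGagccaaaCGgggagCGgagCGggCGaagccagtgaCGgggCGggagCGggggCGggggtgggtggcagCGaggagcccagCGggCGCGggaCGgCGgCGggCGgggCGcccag
These windows hold 18, 22 and 25 CpG, where the median over all 32851 promoters of the table was 6 in the 250 bases before the start. At least as many CpG were found in 21.7%, 14.8% and 10.7% of all promoters. The Msx3, Phox2a and Lhx2 windows thus hold more CpG than the median promoter. These genes were picked, so silent and expressed genes were not compared as classes.

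Markers of the other cells of the tissue were read beside these genes. For comparison with the calls in these lists, 6.04% of all tested genes were called higher by edgeR and 2.82% lower. Of the astrocyte markers 1 of 5 was called higher, Slc1a3, and of the microglia markers 2 of 4, Cx3cr1 and Tmem119. The summed level of the microglia markers was 163, 148 and 166 CPM in the controls and 174, 196 and 219 CPM in the Kdm1a-ifKOs, without overlap. The summed level of the astrocyte markers did not overlap either, at 1675, 1585 and 1713 CPM in the controls and 1862, 1918 and 2042 CPM in the Kdm1a-ifKOs. DESeq2 called 2 astrocyte markers higher, Slc1a3 and Gfap, and 3 microglia markers. Of the markers of thalamus and habenula 1 of 6 was called higher, Prkcd, and of septum and striatum 1 of 6, Ppp1r1b. The septum and striatum markers summed to 67.1, 65.1 and 67.7 CPM in the controls and 79.1, 89.2 and 85.3 CPM in the Kdm1a-ifKOs. Without Ppp1r1b they summed to 29.5, 29.7 and 34.1 CPM in the controls and 31.9, 42.2 and 39.5 CPM in the Kdm1a-ifKOs, which overlap. Of the 6 tested genes of that list 5 had a positive log2 difference, with a median of 0.42. An unadjusted p under 0.05 was found for 3 of them, where 24.5% of all tested genes had one. Every Kdm1a-ifKO library lay above every control for 3 of the 7 septum and striatum genes and below for 1, Chat, at 7 and 1 counts in all. This held for 15.4% and 14.9% of tested genes of at least 1 TPM in controls. Dentate granule cells had C1ql2 higher among 5 markers and CA pyramidal cells had Spink8 higher among 6, while Neurod6 was lower among the 5 markers of excitatory neurons. DESeq2 also called Dsp of the dentate list and Bok of the CA list higher (DESeq2 adjusted p = 0.0200 and 0.0152). The median log2 difference was 0.10 for astrocyte, 0.32 for microglia, 0.11 for thalamus and habenula, 0.05 for dentate granule cell, 0.10 for CA pyramidal cell and -0.03 for excitatory neuron markers. For ependyma, Cajal-Retzius cells, oligodendrocyte precursors, meninges and endothelium, 0 markers were called by edgeR or DESeq2, with 1, 0, 1, 0 and 0 at an unadjusted p under 0.05. Their median log2 differences were -0.29, 0.04, 0.16, 0.52 and 0.08 in that order. The 6 hypothalamic markers had too few reads to be tested, with a summed level of at most 1.57 CPM in a library. The part of these cells in the values of Hhex, which endothelium and microglia can express, was not tested.

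Homeodomain factors work with cofactors, and 22 such genes were tested. Ssbp4, a partner of LIM-homeodomain complexes, and Lmo1 rose by 0.34 and 0.42 on the log2 scale (edgeR adjusted p = 0.00432 and 0.0260). Lmo4, which competes with LIM-homeodomain factors for the same cofactor, fell by 0.20 (edgeR adjusted p = 0.0410). Ldb2, a LIM domain-binding cofactor, had 677, 832 and 688 counts in the controls and 623, 633 and 497 in the Kdm1a-ifKOs, which did not overlap. Its log2 difference of -0.37 missed the threshold with edgeR (adjusted p = 0.0560) and passed it with DESeq2 (adjusted p = 0.0170). Counts over the list were 2 higher and 1 lower by edgeR, against 6.04% and 2.82% of all tested genes, and 2 and 2 by DESeq2, with a median of 0.04. Of 13 noncoding neighbours of the listed genes, 11 were counted and 3 tested, Dlx1as, Dlx6os1 and Emx2os. By edgeR and by DESeq2 0 were called, with 1 at an unadjusted p under 0.05. Since 26 of the 56 genes overlap a gene annotated on the opposite strand and the strand setting of the counting is not given in the sources used here, reads of these pairs cannot be told apart. Reads in overlaps may also have been left uncounted, which was not tested. Adnp, a broadly expressed homeobox gene outside the list that lies within another gene annotated on its own strand, had 4 to 13 counts a library. Of the listed genes, 8 of the 16 expressed, 13 of the 23 low and 6 of the 17 silent overlap another annotated gene, so their levels and classes are uncertain. Mixl1 and Meis2 overlap no other annotated gene.

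CTCF loops were counted at each gene, as loops with an anchor within 10 kb of the gene body, in the 27786 loops deposited. Such a loop was found for 23 of the 56 genes (41.1%), where it was found for 49.5% of protein-coding genes. By class these were 8 of the 16 expressed, 9 of the 23 low and 6 of the 17 silent genes. With loops of at least 10 PETs, the paired-end tags that count a loop, 26.8% of the 56 genes had one. Of protein-coding genes 31.1% did. By class the listed genes were then 3, 6 and 6, so the split by class depends on that threshold. Neither Mixl1 nor Meis2 had a loop anchor within 10 kb at any count of PETs. Mixl1 lay inside 6 loops, the shortest of which spanned 327.6 kb with 3 PETs, and its neighbours Lin9 and Acbd3, 2.3 kb and 29.0 kb away, had log2 changes of -0.23 (edgeR adjusted p = 0.399) and -0.09 (0.456).

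The genes with the most such loops were Dlx3 and Emx2, at 7 each, 1 silent and the other expressed. The loops of Dlx3 had 192 PETs in all and those of Emx2 had 29. Six3 and Six2, neighbours on chromosome 17, were the listed pair joined by a loop, with 5 PETs. Six5 had 5 loops, of which 3 had an anchor within 1 kb of its start, with 13, 4 and 4 PETs. The 250 bases before its start, chr7:19094294-19094543 on the plus strand, overlapped an anchor of 2 loops and are shown for that reason, with CpG in capitals.
Six5: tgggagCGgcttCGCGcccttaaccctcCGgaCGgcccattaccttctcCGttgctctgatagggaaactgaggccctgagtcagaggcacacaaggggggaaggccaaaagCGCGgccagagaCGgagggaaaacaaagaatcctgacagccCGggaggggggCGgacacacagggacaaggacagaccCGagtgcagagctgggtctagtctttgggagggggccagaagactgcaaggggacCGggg
This window holds 13 CpG, a number that 31.5% of all promoters reach. The library was 1 wild-type sample, so loops in Kdm1a-ifKO neurons were not analysed here.

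**Figure D4:**
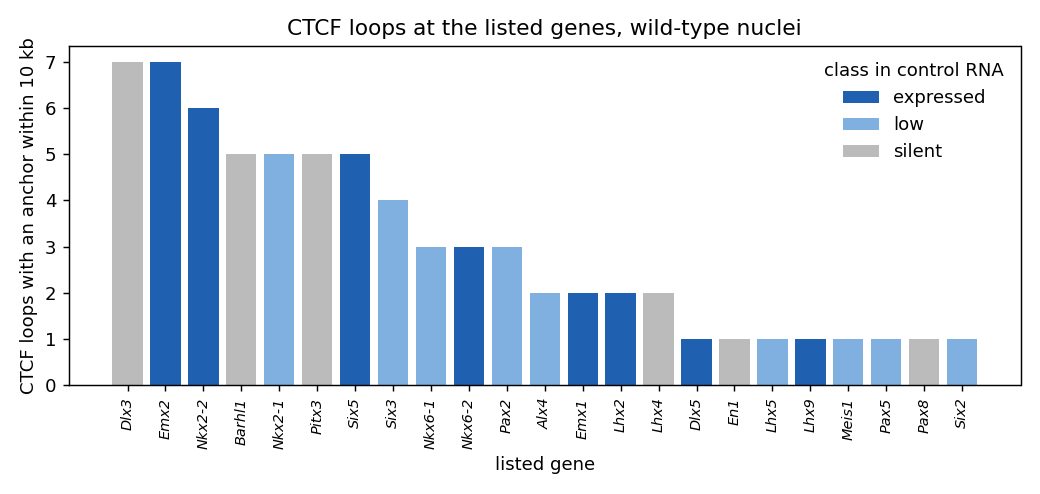
Number of CTCF loops with an anchor within 10 kb of the gene body (vertical axis) for the 23 listed genes that had any, in 1 wild-type library, coloured by class in control RNA. Expressed, low and silent genes are mixed along the order, from 7 loops at Dlx3 and Emx2 to 1.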

How the data were processed

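The authors sequenced poly-A RNA as single-end reads, trimmed them with cutadapt, aligned them with HISAT2 to GRCm38 and deposited raw counts per Ensembl gene from HTSeq. Loops came from ChIA-PIPE on mm10, and the deposited value of a loop is its count of PETs. Symbols, positions and exon lengths came from GENCODE M21, which held 48349 of the 48795 gene identifiers. Counts were filtered with filterByExpr, normalised by TMM and tested with the quasi-likelihood test of edgeR 4.0.16 in R 4.3.3, 2-sided, with Benjamini-Hochberg adjustment over all tested genes and a threshold of 0.05. The fit was tested on simulated data. CPM use TMM library sizes, and TPM divide counts by summed exon length. DESeq2 1.42.0, other normalizations and filters, a replicate block and left-out libraries were alternatives. Intervals are exact binomial at 95% and, like floors of 3 counts, cover counting error only. Called genes and the 5 most abundant were given in full. The members and lists were chosen with earlier results of these data known. Some genes of the lists are not reported here by name.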

Additional observations from a re-analysis of the deposited data

How the results depend on the processing

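Kdm1a fell under every alternative run. Mixl1 was called higher in each of the alternative fits. Meis2 was called lower in each except those without control replicate 3, Kdm1a-ifKO replicate 1 or Kdm1a-ifKO replicate 3. The number of listed genes called higher was 2 under upper-quartile normalization, which added Lhx2, and 3 with no filter on low counts, which added Lhx2 and Six4. Leaving out 1 library at a time gave 1 to 3 listed genes higher and 0 to 1 lower, the 1 being Otx2 in place of Meis2 without Kdm1a-ifKO replicate 3. Without control replicate 3 and Kdm1a-ifKO replicate 2 together, which stood apart on the second principal component (16.9% of variance) and were left out after seeing the data, 3 were higher, and 2 by more than 1 log2 unit, Mixl1 and Six4. Over left-out libraries the log2 change of Alx4 ran from -0.0565 to 1.39 and that of Msx1 from -0.19 to 0.38, each lowest without Kdm1a-ifKO replicate 2, and without both of these libraries Msx1 had -0.26; neither gene was called.

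Over all tested genes, leaving out 1 library gave 646 to 876 higher and 137 to 583 lower. With no filter on low counts 1447 were higher and 1090 lower, against 1014 and 473 in the main test. Same-numbered libraries shared a number and nothing stated beyond it, and the correlation of their deviations from the group means was -0.03, -0.09 and -0.15. With the replicate number as a block, 797 genes were higher and 249 lower, and Mixl1 and Meis2 were called as before. The cause of these shifts was not tested. Members with a loop anchor numbered 15 at 10 PETs or more, 11 with no window and 31 within 25 kb. These were 26.8%, 19.6% and 55.4% of the 56 genes, where 31.1%, 33.2% and 60.6% of protein-coding genes had one. Depth limits the silent genes, where a gene with 0 reads in 3 libraries may still have had up to 3 counts.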
